A study of Mus musculus with 30 samples.

Results

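The genes of the unfolded protein response, the programme by which a cell adjusts the folding capacity of its endoplasmic reticulum (ER), were followed in mouse liver in 2 inbred strains and 3 diets that differed in iron. The set was a list of 35 genes given by name as sensors, transcription factors and targets of the response. Its rule used no measured value, but the list was chosen with earlier results of these data known. All 35 were among the 21087 genes tested. In the array files 33 carried the listed name (Manf under its older name Armet), and the other two, Sel1l and Ppp1r15a, stood under older symbols and were found through their accessions. They were read by 59 probes, of which 57 passed the filter on dim probes, and 21 genes rested on 1 kept probe. None of their spots was saturated.

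The series asked which liver genes follow iron stores. The mice were C57BL/6 (B6) or DBA/2 (D2), with no engineered allele named in the labels, and ate a balanced diet with 200 mg of iron per kg, an enriched diet with 8.3 g per kg or a deficient diet with less than 3 mg per kg, with 5 mice in each of the 6 groups. Each mouse had 1 array of total liver RNA (single-colour Agilent 4x44K), and the labels give each mouse a code of its own, so replicates were separate animals. The labels and files used here do not state sex, age, time on the diet or hour of sampling. Since whole liver was extracted, fewer cells of a type and less RNA per cell cannot be told apart. The hepatocyte markers were bright in every group, with a summed log2 signal of 20.65 to 20.86 over 8 genes. Between 62.6% and 78.5% of the probes of an array stood well above background, and the arrays were scanned on 3 days over which the groups were unevenly spread.

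Proteins that enter the secretory pathway are folded in the ER, and the hepatocyte, which secretes most plasma proteins, has a large ER. When unfolded proteins build up, 3 sensors in the ER membrane respond. ATF6 travels to the Golgi, is cut there and becomes a transcription factor for chaperone genes. The kinase and nuclease IRE1 alpha (gene Ern1) splices Xbp1 messenger RNA, and the spliced product drives genes of ER-associated degradation (ERAD, the disposal of misfolded proteins), translocation and folding. The kinase PERK (gene Eif2ak3) phosphorylates the translation factor eIF2 alpha, which lowers protein synthesis while allowing translation of ATF4, a factor for amino acid and stress genes. ATF4 is also induced through other eIF2 alpha kinases. The members were therefore grouped into an ATF6 arm of 12 genes, an XBP1 arm of 12 genes, an ATF4 arm of 7 genes and 4 genes with no single arm. Many targets respond to both ATF6 and XBP1, so these arms are names for the usual main regulator. Assignment to an arm followed general knowledge of the pathway and was made with earlier results of these data known. Probe signals do not tell spliced from unspliced Xbp1, cut from uncut ATF6 or phosphorylated from unphosphorylated PERK.

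Start-site sequences are shown because the factors of each arm read known DNA elements. Of the 35 members, 31 had a window (250 bases before to 50 after the annotated start) in the RefSeq table of assembly GRCm38.p6, and Derl1, Atf6, Hyou1 and Manf had none. The ER stress response element ERSE was searched as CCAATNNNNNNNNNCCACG on both strands. It was found in 9 members and in 0.119% of all 32851 windows. ERSE-II, ATTGGNCCACG, was found in 2 members and in 0.0365% of all windows. The ATF4 element, TGATGNAA, was found in 4 members and in 3.97% of all windows. The XBP1 element UPRE, searched as TGACGTGG, was in 0.676% of all windows and in no member's window. ERSE matches lay in 5 of 9 ATF6-arm genes with a window (Hspa5, Hsp90b1, Calr, Creld2 and Derl3), 3 of 11 XBP1-arm genes (Dnajc3, Pdia6 and Syvn1) and 0 of 7 ATF4-arm genes, and in Canx. ERSE-II matched Herpud1 and Dnajb11, and the ATF4 element matched Asns, Chac1, Trib3 and Herpud1. Of the 16 matches, 10 are printed, at least 1 for each element found with genes described in the results, and the others are in Hsp90b1 (a further ERSE), Canx, Dnajc3, Dnajb11, Trib3 and Herpud1 (its ATF4 element). Those printed stand on the strand on which the motif reads, 5′ to 3′, with up to 15 bases on each side, and capitals mark the matched letters.
Hspa5, chr2:34772010-34772058, plus strand: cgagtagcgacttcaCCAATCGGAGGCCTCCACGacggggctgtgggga
Hsp90b1, chr10:86705518-86705566, plus strand: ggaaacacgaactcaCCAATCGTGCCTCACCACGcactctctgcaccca
Calr, chr8:84847060-84847108, plus strand: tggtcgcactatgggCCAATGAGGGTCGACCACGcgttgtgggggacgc
Creld2, chr15:88819505-88819553, minus strand: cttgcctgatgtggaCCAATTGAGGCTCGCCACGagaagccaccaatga
Derl3, chr10:75893227-75893275, minus strand: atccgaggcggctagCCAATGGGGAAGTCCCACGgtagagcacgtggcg
Pdia6, chr12:17266476-17266524, plus strand: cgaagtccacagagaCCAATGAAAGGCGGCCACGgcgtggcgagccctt
Syvn1, chr19:6046517-6046565, plus strand: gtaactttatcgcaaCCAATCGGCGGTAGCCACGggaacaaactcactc
Herpud1, chr8:94386362-94386402, plus strand: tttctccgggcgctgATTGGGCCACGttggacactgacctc
Asns, chr6:7693210-7693247, minus strand: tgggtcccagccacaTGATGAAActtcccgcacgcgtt
Chac1, chr2:119351034-119351071, minus strand: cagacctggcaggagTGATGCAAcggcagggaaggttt
In ERSE any 9 bases may stand between the fixed ends, and the 7 elements printed differ there. A match describes letters and is no measurement of factor binding.

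**Figure D1:**
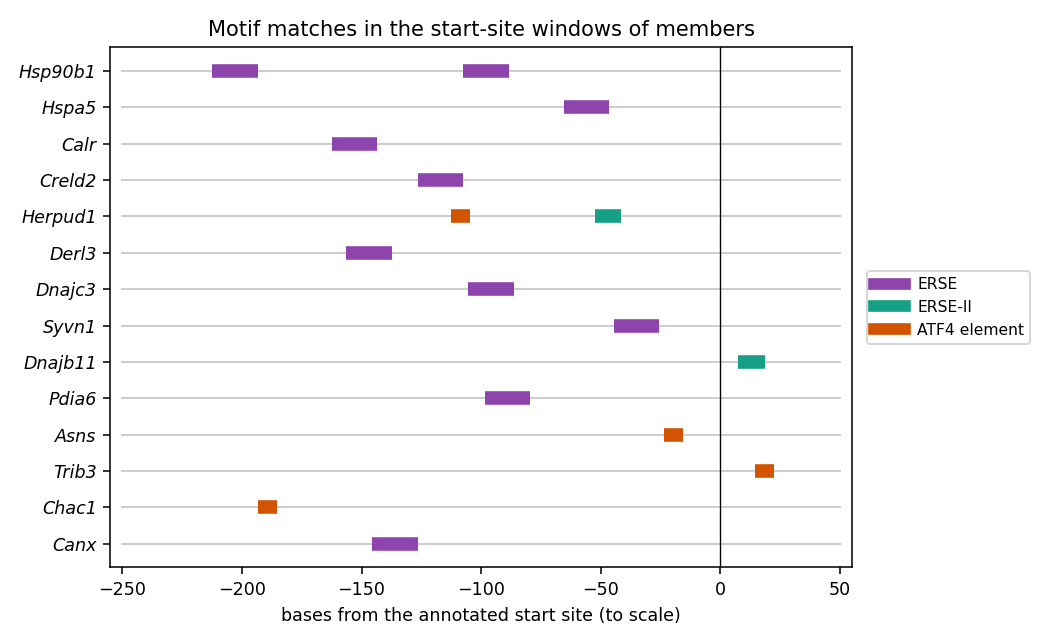
Positions of motif matches in the start-site windows of members, in bases from the annotated start (GRCm38.p6), from 250 before to 50 after it; each line is a gene and each coloured block a match. All ERSE blocks lie upstream of the start, the farthest at -212 to -194 in Hsp90b1 and the nearest at -44 to -26 in Syvn1, while the matches of Dnajb11 and Trib3 lie after the start.

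Each mouse was first given an arm level, the median over the genes of an arm of the log2 signal minus that gene's mean over the 30 mice. In B6 mice the level of the ATF6 arm was 0.01, 0.04, -0.01, -0.06 and 0.57 on the balanced diet, -0.33, -0.29, -0.07, -0.11 and -0.58 on the enriched diet and -0.71, -0.31, -0.19, -0.17 and -0.54 on the deficient diet. In D2 mice it was 0.07, 0.50, 0.34, 0.67 and 0.44 on the balanced diet, -0.05, 0.04, -0.01, 0.29 and 0.19 on the enriched diet and 0.06, -0.18, 0.17, 0.10 and 0.41 on the deficient diet. All 5 B6 mice on either altered diet lay below the lowest B6 mouse on the balanced diet (-0.06), the nearest at -0.07. In D2 the ranges overlapped on both altered diets. The B6 balanced group held a mouse at 0.57, whose 4 companions lay between -0.06 and 0.04. XBP1-arm levels moved less, with group means from -0.11 in B6 deficient to 0.11 in D2 balanced mice. ATF4-arm levels had group means from -0.11 to 0.08, and the B6 deficient mice spread from -0.39 to 0.40. The pooled SD within groups was 0.215 for the ATF6 arm, 0.087 for the XBP1 arm and 0.186 for the ATF4 arm.

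**Figure D2:**
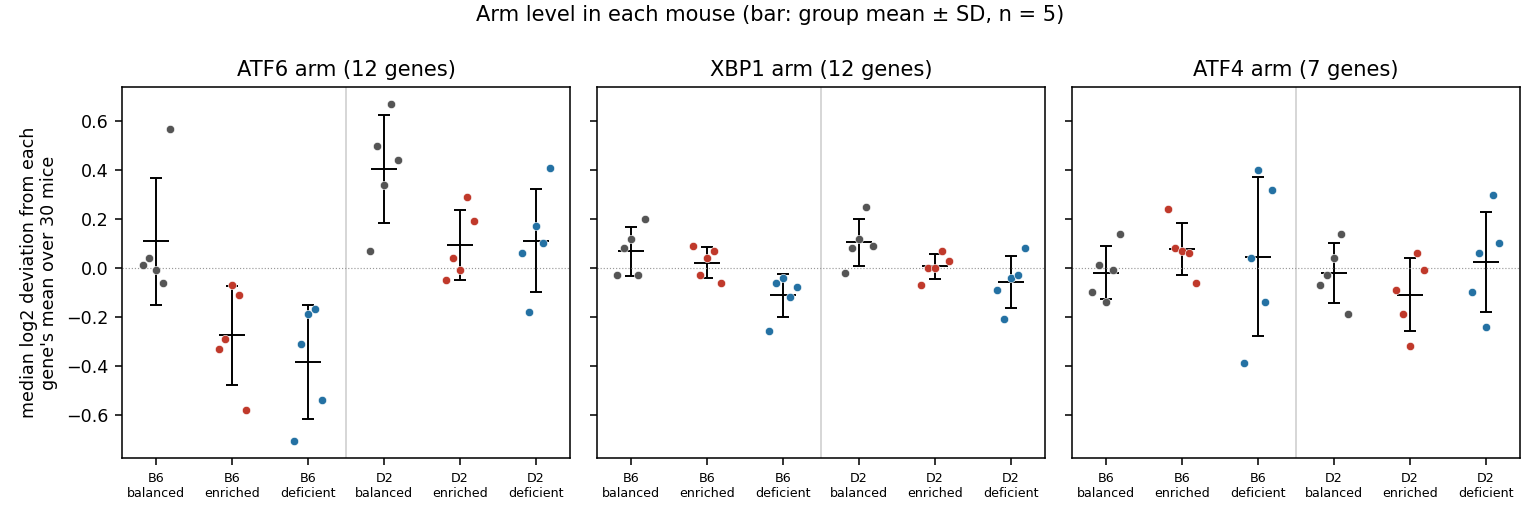
Arm level in each of the 30 mice (median log2 deviation from each gene's mean over all mice) for the ATF6, XBP1 and ATF4 arms; points are mice, bars the group mean ± SD (n = 5). The ATF6 arm of B6 mice lies between -0.71 and -0.07 on the altered diets and between -0.06 and 0.57 on the balanced diet, while ATF4-arm means stay between -0.11 and 0.08.

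Iron deficiency was accompanied by lower signals of 5 of 11 chaperones and cochaperones, 2 of 4 disulfide isomerases and 5 of 9 genes of ERAD and translocation, while 0 of 4 ATF4 effectors passed and 1 of 7 sensors and transcription factors, Atf4, was higher. Averaged over strains, 12 of the 35 members (34.3%) were lower in deficient than in balanced mice and 1 was higher, against 4.22% of all genes lower and 3.9% higher (limma, Benjamini-Hochberg adjusted p below 0.05 over 21087 genes, as for every adjusted p here). The median difference was -0.41 in the ATF6 arm (7 of 12 genes lower), -0.18 in the XBP1 arm (5 of 12 lower) and 0.07 in the ATF4 arm (1 of 7 higher), where the median over all genes was 0.001. The enrichment comparison below uses the same balanced mice. With B6 balanced mouse 5, the mouse at 0.57, left out, 12 members were again lower and 1 higher, and the ATF6-arm median was -0.358. All 13 differences kept their sign within scan day 2 (5 deficient and 4 balanced mice) and within scan day 3 (4 and 4). Calls were lost on both days. They are not counted here, because only 1 balanced mouse was B6 on day 2 and only 1 was D2 on day 3. The ATF6-arm median was -0.162 and -0.459 on these days, and the ATF4-arm median 0.176 and -0.321. With scan day as a block in the fit of all mice, 14 members passed, 2 higher and 12 lower, where 10.5% of all genes passed against 8.11% without the block.

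Derl3, which encodes a derlin that helps to move misfolded proteins out of the ER, had the largest difference among members. Derl3 had log2 signals in B6 mice of 7.22, 7.98, 7.44, 8.60 and 9.66 on the balanced diet, 7.21, 6.89, 6.65, 7.28 and 6.16 on the enriched diet and 6.77, 6.65, 6.68, 6.43 and 6.65 on the deficient diet. Its D2 values were 8.70, 10.60, 8.83, 10.94 and 10.23 on the balanced diet, 8.85, 10.06, 8.43, 10.38 and 9.05 on the enriched diet and 8.03, 7.96, 8.99, 7.92 and 8.90 on the deficient diet. In B6 the deficient mice lay below all balanced mice, whereas in D2 the 2 groups overlapped and D2 balanced mice 2 and 4 were the highest of all 30. Derl3 fell by 1.52 on the log2 scale (SE 0.32, 2.87-fold, adjusted p = 0.00297). Sdf2l1, an ER cochaperone that works with the chaperone BiP, gave the next largest. Among B6 mice, Sdf2l1 read 10.68, 10.75, 10.70, 10.59 and 11.93 on the balanced diet, 10.26, 10, 10.36, 10.39 and 9.53 on the enriched diet and 9.68, 9.61, 10.32, 9.75 and 9.37 on the deficient diet. Among D2 mice it read 10.78, 11.99, 11.14, 11.98 and 11.45 on the balanced diet, 10.82, 11.07, 11.05, 11.61 and 10.86 on the enriched diet and 10.86, 10.16, 10.95, 10.60 and 10.99 on the deficient diet. The deficient B6 mice were again below all balanced B6 mice, while 3 deficient D2 mice lay above the lowest balanced D2 mouse. Sdf2l1 fell by 0.97 on the log2 scale (SE 0.18, 1.96-fold, adjusted p = 0.00129).

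Among the chaperones, Hspa5, which encodes BiP, the main ER chaperone and the usual marker of the response, did not pass. The log2 signals of Hspa5 in the B6 mice were 16.06, 15.82, 15.88, 15.88 and 16.60 on the balanced diet, 15.76, 15.76, 15.93, 16.06 and 15.56 on the enriched diet and 15.30, 15.69, 15.94, 15.90 and 15.48 on the deficient diet. The D2 mice stood at 15.65, 16.13, 15.99, 16.41 and 15.61 on the balanced diet, 15.65, 15.65, 15.71, 15.94 and 16.06 on the enriched diet and 15.71, 15.70, 15.99, 16.18 and 16.10 on the deficient diet. The groups overlapped in both strains, and the averaged difference was -0.20 (SE 0.12, adjusted p = 0.321). Hsp90b1, the ER member of the HSP90 family, was at -0.14 (SE 0.06, adjusted p = 0.171). Hyou1, an ER chaperone of the HSP110 family, fell by 0.47 on the log2 scale (SE 0.11, 1.38-fold, adjusted p = 0.0103). Its group means in B6 were 12.47 ± 0.38 (SD, n = 5) on the balanced and 11.92 ± 0.16 (SD, n = 5) on the deficient diet. In D2 they were 13.42 ± 0.28 (SD, n = 5) and 13.04 ± 0.27 (SD, n = 5), with overlapping ranges. Manf, an ER-resident secreted factor, fell by 0.58 on the log2 scale (SE 0.14, 1.49-fold, adjusted p = 0.00988). Its deficient B6 mice, at 12.60, 13.03, 13.35, 13.06 and 12.60, were all below the balanced ones, the lowest of which was at 13.37. The D2 groups of Manf overlapped. Within B6 neither Manf nor Hyou1 passed (adjusted p = 0.0507 and 0.0791), and within D2 neither did (adjusted p = 0.264 and 0.199). Calr, the lectin chaperone calreticulin, fell by 0.34 on the log2 scale (SE 0.09, 1.27-fold, adjusted p = 0.0205), and Dnajb11, a cochaperone of BiP, fell by 0.35 on the log2 scale (SE 0.08, 1.27-fold, adjusted p = 0.00656). A further Calr probe gave -0.23 (adjusted p = 0.148 with every probe tested as its own feature), and the Calr call was lost when only the groups compared were fitted. The Hyou1 call was lost with the mean of its kept probes, of which the further one was much dimmer (mean log2 signal 5.42 against 12.71). Creld2, a disulfide isomerase-like ER protein, was at -0.53 (SE 0.21, adjusted p = 0.145) and the BiP cochaperone Dnajc3 at -0.12 (SE 0.07, adjusted p = 0.339).

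Of the disulfide isomerases, which form and shuffle the bonds between cysteines, Pdia6 and Pdia4 fell. Pdia6 had log2 signals in B6 mice of 14.65, 14.92, 14.90, 14.50 and 15.10 on the balanced diet, 14.47, 14.33, 14.29, 14.38 and 14.11 on the enriched diet and 14.08, 14.18, 14.41, 14.17 and 14.25 on the deficient diet. Its D2 values were 15.14, 15.80, 15.27, 15.69 and 15.45 on the balanced diet, 15.02, 15.16, 15.37, 15.48 and 15.21 on the enriched diet and 15.04, 14.70, 14.95, 15.05 and 15.19 on the deficient diet. The deficient B6 mice did not overlap the balanced ones, and the D2 groups overlapped at their edges. Pdia6 fell by 0.54 on the log2 scale (SE 0.09, 1.46-fold, adjusted p = 0.000294). Its other 3 kept probes gave -0.69, -0.55 and -0.43, of which the last, a dim probe, did not pass. Pdia4 fell by 0.32 on the log2 scale (SE 0.08, 1.25-fold, adjusted p = 0.0142), a call lost with slide as a block (-0.29, adjusted p = 0.0813) and without normalization between arrays. Pdia3 and P4hb, the isomerases of the glycoprotein and collagen folding machineries, were at -0.28 (SE 0.10, adjusted p = 0.088) and -0.01 (SE 0.06, adjusted p = 0.931). The fitted Pdia3 and Creld2 values rest on fewer mice, because spots marked as outliers were dropped (1 Pdia3 value in D2 deficient, and 1 and 2 Creld2 values in D2 balanced and D2 enriched mice).

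Genes of ERAD and translocation formed the remaining falls. Sec61b, a subunit of the channel through which new proteins enter the ER, had the smallest adjusted p of the comparison among members. Among B6 mice, Sec61b read 13.75, 13.98, 13.93, 13.80 and 13.94 on the balanced diet, 13.94, 13.80, 13.85, 13.80 and 13.96 on the enriched diet and 13.61, 13.57, 13.71, 13.30 and 13.54 on the deficient diet. Among D2 mice it read 13.97, 14.14, 14.12, 14.33 and 14.23 on the balanced diet, 13.64, 13.73, 13.90, 14.15 and 14.07 on the enriched diet and 13.68, 13.60, 13.71, 13.76 and 13.69 on the deficient diet. In both strains every deficient mouse was below every balanced mouse. Sec61b fell by 0.40 on the log2 scale (SE 0.06, 1.32-fold, adjusted p = 0.000184). Herpud1, a scaffold of the ERAD complex, fell by 0.60 on the log2 scale (SE 0.16, 1.52-fold, adjusted p = 0.0185), but its balanced and deficient mice overlapped in both strains, and its difference was -0.03 within scan day 2 and -1.20 within scan day 3. Edem1 and Edem2, mannosidase-like proteins that mark glycoproteins for disposal, fell by 0.27 and 0.28 on the log2 scale (adjusted p = 0.0151 and 0.00223), and all 3 kept Edem1 probes fell. Both calls were lost without normalization between arrays. Syvn1, the ubiquitin ligase of the ERAD complex, and its adaptor Sel1l were at -0.23 and -0.13 (adjusted p = 0.256 and 0.485), and Derl1 and Derl2 at 0.09 and -0.05 (adjusted p = 0.284 and 0.558). A dimmer Derl1 probe passed upwards, at 0.21 (adjusted p = 0.0216).

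None of the 3 sensors passed with deficiency, nor did Xbp1. Atf6 was at 0.02 (SE 0.05, adjusted p = 0.858), Ern1 at -0.05 (SE 0.07, adjusted p = 0.736), Eif2ak3 at 0.07 (SE 0.08, adjusted p = 0.689) and Xbp1 at -0.12 (SE 0.08, adjusted p = 0.462). Creb3l3 (CREBH), a liver transcription factor that, like ATF6, is held in the ER membrane, was at 0.06 (SE 0.05, adjusted p = 0.585). The exception among the transcription factors was Atf4. The log2 signals of Atf4 in the B6 mice were 10.94, 11.01, 11.17, 11.39 and 11.32 on the balanced diet, 10.95, 11.31, 11.20, 11.37 and 11.27 on the enriched diet and 10.92, 11.40, 11.71, 11.13 and 11.68 on the deficient diet. The D2 mice stood at 11.12, 11.27, 11.35, 11.21 and 10.81 on the balanced diet, 11.22, 11.44, 11.20, 11.37 and 11.30 on the enriched diet and 11.50, 11.98, 11.57, 11.83 and 11.32 on the deficient diet. The D2 deficient mice lay at 11.32 or above, and the highest D2 balanced mouse at 11.35, so these groups overlapped by their nearest mice only, while the B6 groups overlapped widely. Atf4 rose by 0.34 on the log2 scale (SE 0.10, 1.27-fold, adjusted p = 0.0303). Its call was lost without any of 7 mice (B6 balanced mice 1 and 2, B6 deficient mice 3 and 5, D2 balanced mouse 5 and D2 deficient mice 2 and 4; largest adjusted p = 0.0659), with slide as a block and when only the groups compared were fitted.

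Genes outside the set that follow feeding moved on the same diet, and their part in these results was not tested. Of all genes 3.9% were higher and 4.22% lower on this diet. Of 14 feeding state genes 4 were higher and 1 lower on the deficient diet, with Pdk4 at 1.40 (SE 0.18, adjusted p = 2.86e-05), Igfbp1 at 0.81, G6pc at 0.72 and Scd1 at -1.01. Of 17 clock genes 1 was higher and 2 were lower (Arntl 0.84, Dbp -0.88 and Nr1d2 -0.43), and 0 of 14 cytosolic heat shock genes passed. Sinusoidal endothelial markers were higher in 4 of 7, with summed log2 signals of 14.34 to 14.69 in balanced and 14.49 to 14.72 in deficient B6 mice, and of 14.14 to 14.31 and 14.18 to 14.43 in D2 mice. Stellate cell markers were higher in 2 of 6, with sums of 14.50 to 14.97 and 14.94 to 15.30 in B6 and of 13.77 to 15.18 and 14.85 to 15.19 in D2. Because Derl3 and Creld2 are abundant in cells with a large secretory load, markers of plasma and pancreatic acinar cells were also read. Of the plasma cell markers Tnfrsf17 was above background on no array, and 0 of the 5 tested passed. Of 8 tested acinar markers Amy2 was higher (0.31), with sums of 12.46 to 13.12 in balanced and 12.83 to 13.12 in deficient B6 mice, and of 12.85 to 13.11 and 13.11 to 13.49 in D2 mice. No hepatocyte, Kupffer cell, cholangiocyte, B cell, T cell or neutrophil marker passed.

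**Figure D3:**
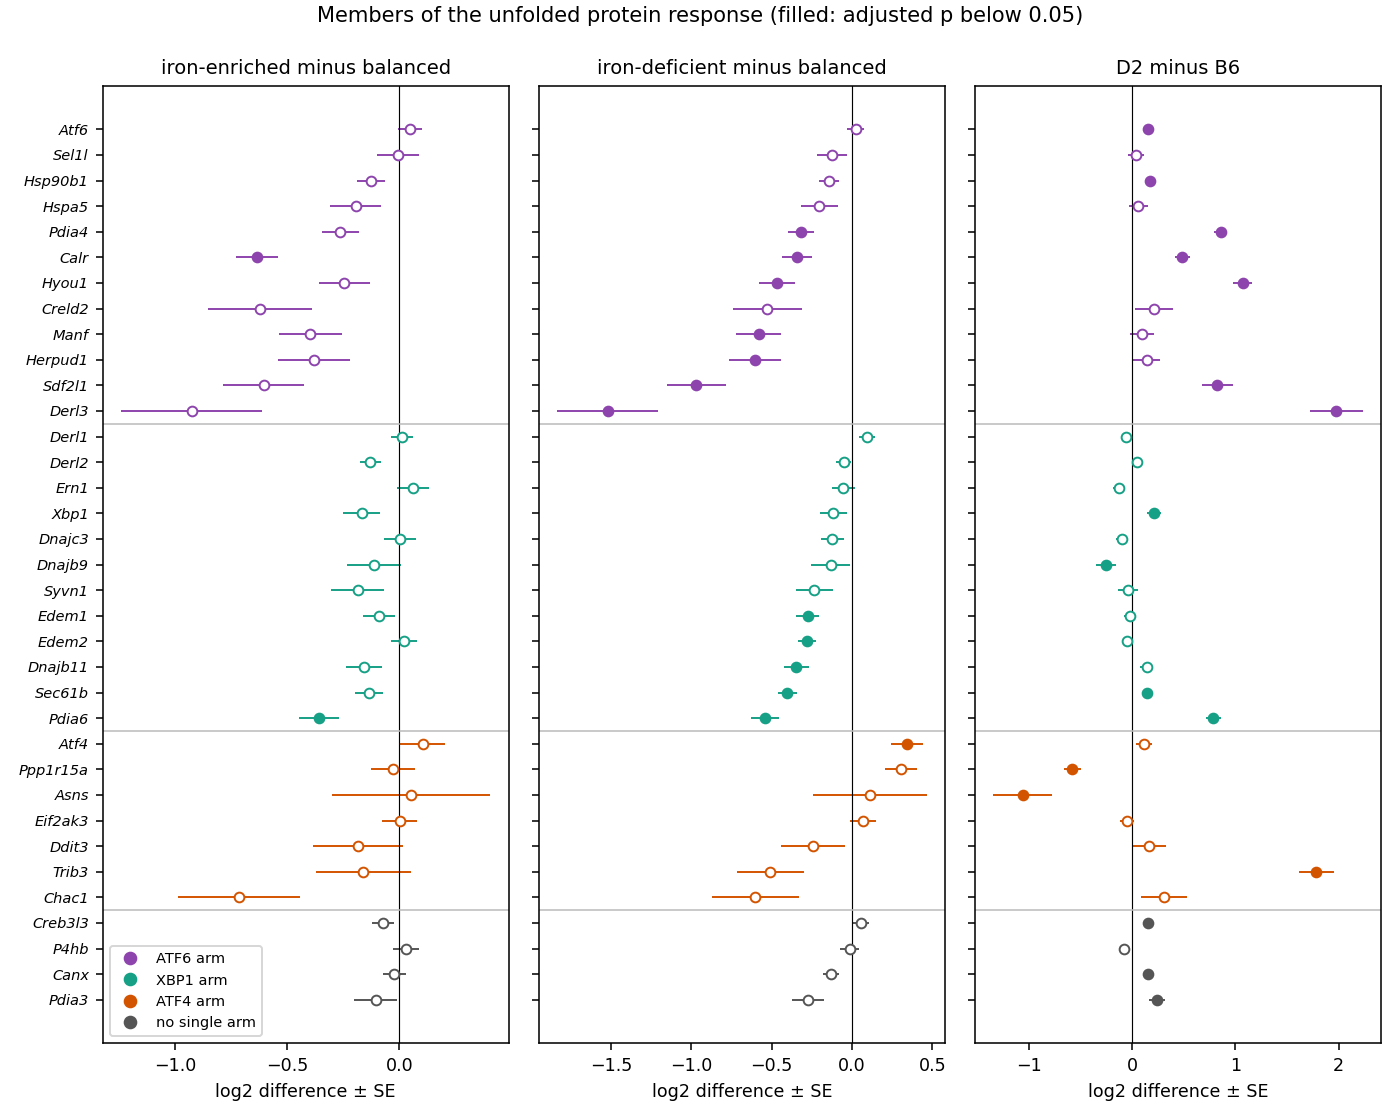
Log2 differences of the 35 members, by arm, for iron-enriched minus balanced and iron-deficient minus balanced mice (averaged over strains) and for D2 minus B6 mice (averaged over diets); points are limma estimates, bars ± SE, and filled points have an adjusted p below 0.05. Filled points on the deficient diet lie left of 0 except for Atf4 at 0.34, and the strain differences include Derl3 at 1.97, Trib3 at 1.78, Hyou1 at 1.07 (a probe-dependent direction) and Asns at -1.06.

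Iron enrichment was accompanied by lower Calr and Pdia6. These were the 2 members lower in enriched than in balanced mice (5.7% of the members), and none was higher, where 1.03% of all genes were lower and 1.21% higher. Before adjustment 12 members had p below 0.05. Calr had log2 signals in B6 mice of 14.45, 14.18, 14.04, 14.08 and 14.32 on the balanced diet, 13.22, 13.46, 13.56, 13.52 and 13.10 on the enriched diet and 13.66, 13.34, 13.98, 13.76 and 13.55 on the deficient diet. Its D2 values were 14.02, 14.80, 14.44, 14.67 and 14.17 on the balanced diet, 13.83, 13.88, 14.01, 14.16 and 14.07 on the enriched diet and 14.21, 14.26, 14.26, 14.25 and 14.46 on the deficient diet. All enriched B6 mice were below all balanced B6 mice, and the D2 groups overlapped. Calr fell by 0.64 on the log2 scale (SE 0.09, 1.55-fold, adjusted p = 0.000166). Its further, dimmer probe gave -0.29 (adjusted p = 0.12). Pdia6 fell by 0.36 on the log2 scale (SE 0.09, 1.28-fold, adjusted p = 0.0251), and the call was lost without any of 6 mice (B6 balanced mouse 5, B6 enriched mouse 5, D2 balanced mice 2 and 4 and D2 enriched mice 1 and 2; largest adjusted p = 0.0556) and with slide as a block. Within scan day 2 Calr and Pdia6 were at -0.70 and -0.17, with only 1 B6 balanced, 1 B6 enriched and 1 D2 enriched mouse. Within scan day 3, with only 1 D2 balanced mouse, they were at -0.58 and -0.44. Calls within a day are not counted here.

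In the ATF6 arm Calr was the only gene to pass on the enriched diet, and of the other 11 all but Atf6 (0.05) had a negative estimate. The arm median was -0.32, against -0.12 for the XBP1 arm, -0.03 for the ATF4 arm and 0.008 for all genes. Derl3 was at -0.93 (SE 0.32, adjusted p = 0.132), Creld2 at -0.62 (SE 0.23, adjusted p = 0.185), Sdf2l1 at -0.60 (SE 0.18, adjusted p = 0.0786), Manf at -0.40 (SE 0.14, adjusted p = 0.153) and Herpud1 at -0.38 (SE 0.16, adjusted p = 0.264). Sec61b, Edem1 and Edem2, which fell on the deficient diet, were at -0.14, -0.09 and 0.02 on the enriched diet (adjusted p = 0.312, 0.66 and 0.942). Hspa5 was at -0.20 (SE 0.12, adjusted p = 0.497). In the XBP1 arm, Ern1 and Xbp1 were at 0.06 and -0.17 (adjusted p = 0.817 and 0.364). Of the marker lists none held a gene that passed on the enriched diet, and 0 of 14 feeding state and 0 of 14 heat shock genes did, while 1 of 17 clock genes was lower (Nr1d2 -0.51).

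**Figure D4:**
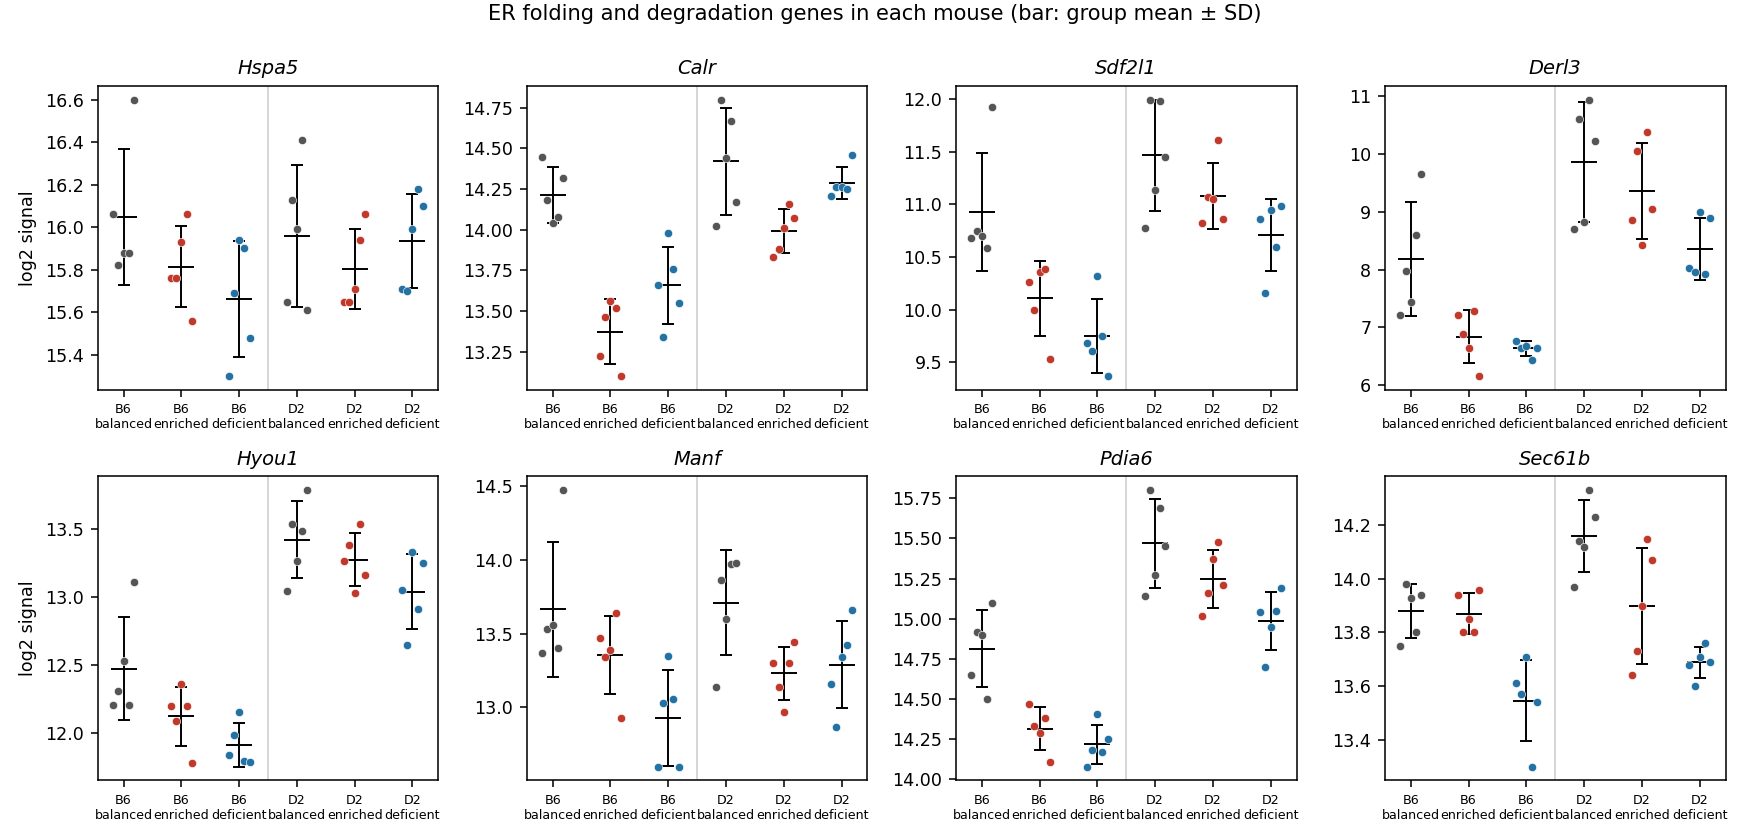
Log2 signal in each mouse of 8 ER folding and degradation genes in the 6 groups of strain and diet; points are mice and bars the group mean ± SD (n = 5), and each panel has its own axis, which does not start at 0. Calr lies between 13.10 and 13.56 in B6 enriched mice and at 14.04 or above in B6 balanced mice, Sec61b lies between 13.30 and 13.76 in deficient mice, and Pdia6 lies higher in D2 than in B6 on each diet.

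The diet effects were also tested within each strain, in the same fit of all groups. On the deficient diet fewer members passed in either strain than in the average over strains. On the enriched diet more passed in B6 than in that average, and fewer in D2. In B6 mice Calr (-0.84), Pdia6 (-0.49) and Pdia4 (-0.41) were lower on the enriched diet, 8.6% of the members against 5.9% of all genes called in either direction. In D2 mice none passed, where 0.0901% of all genes did, and 3 members had an unadjusted p below 0.05. On the deficient diet 6 members passed in B6, against 1.79% of all genes: Sdf2l1 at -1.18 (SE 0.26, adjusted p = 0.0148), Pdia6 at -0.60, Calr at -0.55, Dnajb11 at -0.48, Pdia4 at -0.47 and Sec61b at -0.33. In D2 mice 5 passed, against 4.69% of all genes. Derl3 was at -1.50 (SE 0.45, adjusted p = 0.0499), Pdia6 at -0.49, Sec61b at -0.47, Edem2 at -0.30 and Atf4 at 0.48. The ATF6-arm median on the deficient diet was -0.56 in B6 and -0.29 in D2, and on the enriched diet -0.38 and -0.20.

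The difference between strains was tested for each diet effect, and no member passed. For enrichment the smallest adjusted p was 0.325 (Hsp90b1, D2 minus B6 effect 0.29), 3 members had an unadjusted p below 0.05, and 1.11% of all genes passed. For deficiency the smallest was 0.623 (Eif2ak3, 0.38), 4 members had an unadjusted p below 0.05, and 0.019% of all genes passed. A member that passed in B6 and not in D2 is therefore not shown to respond differently in the strains.

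Between the strains the members' signals differed about as often as those of other genes did, and mostly upwards in D2. Whether each probe reads both strains alike was not tested. Derl3, Pdia4, Sdf2l1, Asns and Ppp1r15a, described below, rest on 1 kept probe each. Averaged over diets, 14 members were higher in D2 than in B6 (40.0%, where 25.9% of all genes were higher) and 3 were lower (8.6%, where 24.2% were lower). Together this was 48.6% of the members, close to the 50.1% of all genes that passed. In the ATF6 arm 7 of 12 genes were higher and none lower, with a median of 0.19. These counts include Hyou1, whose probes pointed in opposite directions. Leaving it aside, 6 of 11 genes of the arm and 13 members in all were higher. Without normalization between arrays, which moved the median of all genes to -0.168, 7 members were higher and 7 lower. In the XBP1 arm 3 were higher and 1 lower (median -0.04, but 0.02 with 75th percentile scaling), and in the ATF4 arm 1 was higher and 2 lower (median 0.11). The median over all genes was -0.012. Within scan days 2 and 3 all 17 differences kept their sign, but calls were lost there and some groups held only 1 mouse.

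Derl3 was higher in D2 by 1.97 on the log2 scale (SE 0.26, 3.93-fold, adjusted p = 2.76e-07). From the values above, each D2 group stood above the B6 group on the same diet in its mean, and the ranges overlapped only on the balanced diet. Hyou1 differed by 1.07 (SE 0.09, adjusted p = 1.75e-10), Pdia4 by 0.86 (SE 0.07, adjusted p = 1.79e-11), Sdf2l1 by 0.82 (SE 0.15, adjusted p = 3.48e-05), Pdia6 by 0.79 (SE 0.07, adjusted p = 4.04e-10) and Calr by 0.48 (SE 0.08, adjusted p = 4.64e-06). For Pdia4 the B6 mice on the 3 diets lay between 12.28 and 13.25 and the D2 mice between 13.17 and 13.83, and on each single diet the strains did not overlap. Pdia6 and Trib3 also did not overlap on any diet. The other 3 Pdia6 probes gave 0.96, 0.99 and 1.04, all higher. Hyou1 had a much dimmer further probe with the opposite sign, -2.38 (adjusted p = 5.26e-09 over probes). Its mean log2 signal was 5.42, against 12.71 for the tested probe. The direction for Hyou1 thus rests on which probe is read, and the mean of both probes, which weighs them alike, gave -0.66.

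Smaller differences above B6 passed for Pdia3 (0.24), Xbp1 (0.21), Hsp90b1 (0.18), Creb3l3 (0.15), Canx (0.15), Atf6 (0.15) and Sec61b (0.15), with adjusted p from 0.00284 to 0.0163. All 7 of these calls were lost without normalization between arrays, and those of Pdia3 and Sec61b also with slide as a block (adjusted p = 0.107 for each). Hspa5 differed by 0.06 (SE 0.09, adjusted p = 0.638). The further Hsp90b1 probe gave -0.04 (adjusted p = 0.794). Dnajb9, a BiP cochaperone and a standard target of spliced XBP1, was lower in D2 and fell by 0.25 on the log2 scale (SE 0.10, 1.19-fold, adjusted p = 0.0355), a call lost without any of 11 mice (B6 balanced mouse 5, B6 enriched mice 1 and 4, B6 deficient mice 2 and 3, D2 balanced mice 1 and 2, D2 enriched mice 3 and 4 and D2 deficient mice 1 and 2; largest adjusted p = 0.0675). Its other two probes gave -0.20 and -0.21 and did not pass. Dnajc3 was at -0.10 (SE 0.06, adjusted p = 0.162), while its 3 further probes passed at -0.26, -0.36 and -0.74. Sel1l, Derl1 and Edem1 did not pass by their tested probes, but a further probe of each did, at 0.32, -0.15 and -0.21. Other further probes, at 0.105 and -0.08 for Derl1 and -0.10 for Edem1, did not pass. The further Canx probe gave 0.09 and did not pass (adjusted p = 0.0798 over probes).

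Diet by diet, 7 members passed between the strains on the balanced diet, 14 on the enriched and 10 on the deficient diet, against 30.1%, 35.4% and 28.4% of all genes. Of the members this was 20%, 40.0% and 28.6%, so that the first share was below that of all genes and the last equal to it to within a percentage point. Pdia4, Pdia6, Derl3 and Trib3 passed upwards and Ppp1r15a downwards on each diet. The brighter Hyou1 probe passed upwards on each diet and its dimmer probe downwards (-2.59, -2.19 and -2.38). Derl3 differed by 1.68 (SE 0.45, adjusted p = 0.0047) on the balanced, 2.52 (SE 0.45, adjusted p = 5.53e-05) on the enriched and 1.72 (SE 0.45, adjusted p = 0.00403) on the deficient diet.

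Other gene lists and cell markers also held genes that differed between the strains, as 50.1% of all genes did, and their part in the members' strain differences was not tested. Of 14 cytosolic heat shock genes 12 were lower in D2 and none higher, with a median of -0.38, Hspb1 at -3.28 and Hsp90ab1 at -0.45. Of 17 clock genes 10 were higher and 5 lower, with Dbp at 4.18, Per3 at 3.89 and Arntl at -2.73. Of 14 feeding state genes 4 were higher and 6 lower, with Pdk4 at -2.53 and Srebf1 at 1.58. Kupffer cell markers were lower in D2 in 9 of 9, with summed log2 signals of 15.55 to 16.64 in B6 and 14.89 to 15.48 in D2 mice. Endothelial markers were lower in 6 of 7 (sums of 14.34 to 14.79 in B6 and 14.14 to 14.43 in D2) and cholangiocyte markers in 3 of 5 (12.11 to 13.36 and 11.58 to 12.27). Hepatocyte markers were higher in 4 and lower in 2 of 8 (sums of 20.65 to 20.84 in B6 and 20.70 to 20.86 in D2), plasma cell markers were higher in 2 and lower in 2 of 5 (13.50 to 13.84 and 13.13 to 13.69), and stellate cell markers were higher in 1 and lower in 1 of 6 (14.50 to 15.30 and 13.77 to 15.19). Among acinar, B cell, T cell and neutrophil markers 1 of each was higher: Amy2 (0.33), Cd79b (0.39), Cd3g (0.23) and Camp (0.75).

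The ATF4 arm held large strain differences of opposite sign. Trib3, a pseudokinase induced by ATF4 and CHOP, was high in D2. Among B6 mice, Trib3 read 11.27, 11.94, 11.41, 10.33 and 10.21 on the balanced diet, 11.16, 11.46, 10.45, 11.05 and 10.30 on the enriched diet and 10.93, 10.36, 10.44, 10.80 and 10.35 on the deficient diet. Among D2 mice it read 12.68, 13.68, 12.04, 13.05 and 12.84 on the balanced diet, 12.72, 12.38, 13.04, 13.01 and 12.29 on the enriched diet and 12.11, 12.57, 12.65, 12.27 and 11.89 on the deficient diet. No D2 mouse fell below the highest B6 mouse on the same diet. Trib3 was higher in D2 by 1.78 on the log2 scale (SE 0.17, 3.44-fold, adjusted p = 1.32e-09), and a further probe gave 1.58. Asns, asparagine synthetase, was lower in D2 on average. The log2 signals of Asns in the B6 mice were 10.87, 8.41, 8.91, 11.32 and 9.06 on the balanced diet, 9.76, 10.04, 9.80, 10.85 and 10.70 on the enriched diet and 9.1, 9.12, 10.26, 11.18 and 10.32 on the deficient diet. The D2 mice stood at 8.23, 9.43, 8.01, 10.46 and 9.26 on the balanced diet, 8.03, 9.07, 8.63, 8.95 and 8.65 on the enriched diet and 8.88, 9.04, 8.80, 9.72 and 8.66 on the deficient diet. The balanced B6 mice spread from 8.41 to 11.32, and the strains did not overlap on the enriched diet only. Asns fell by 1.06 on the log2 scale (SE 0.29, 2.08-fold, adjusted p = 0.00299) from B6 to D2. Ppp1r15a, the phosphatase subunit GADD34 that reverses eIF2 alpha phosphorylation, fell by 0.58 on the log2 scale (SE 0.08, 1.5-fold, adjusted p = 7.24e-07) from B6 to D2.

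With diet, the effectors of this arm gave mixed estimates that did not pass. On the deficient diet Ppp1r15a was at 0.30 (SE 0.10, adjusted p = 0.0534), Trib3 at -0.51 (SE 0.21, adjusted p = 0.149), Chac1 at -0.60 (SE 0.27, adjusted p = 0.193), Ddit3 at -0.24 (SE 0.20, adjusted p = 0.543) and Asns at 0.11 (SE 0.35, adjusted p = 0.902). Ddit3 encodes the death-associated factor CHOP, and Chac1 a glutathione-degrading enzyme downstream of ATF4. On the enriched diet Chac1 was at -0.71 (SE 0.27, adjusted p = 0.192) and the remaining members of the arm lay between -0.18 and 0.10. Ppp1r15a signals of B6 mice were 10.16, 10.12, 10.22, 9.85 and 10.26 on the balanced and 10.18, 10.14, 10.45, 10.63 and 10.37 on the deficient diet. Those of D2 mice were 9.93, 9.48, 9.19, 9.40 and 9.11 on the balanced and 9.79, 10.07, 9.52, 9.79 and 9.83 on the deficient diet. Every deficient mouse exceeded its strain's balanced mean (10.12 in B6 and 9.42 in D2). With slide as a block Ppp1r15a passed on the deficient diet, at 0.41 (adjusted p = 0.014).

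**Figure D5:**
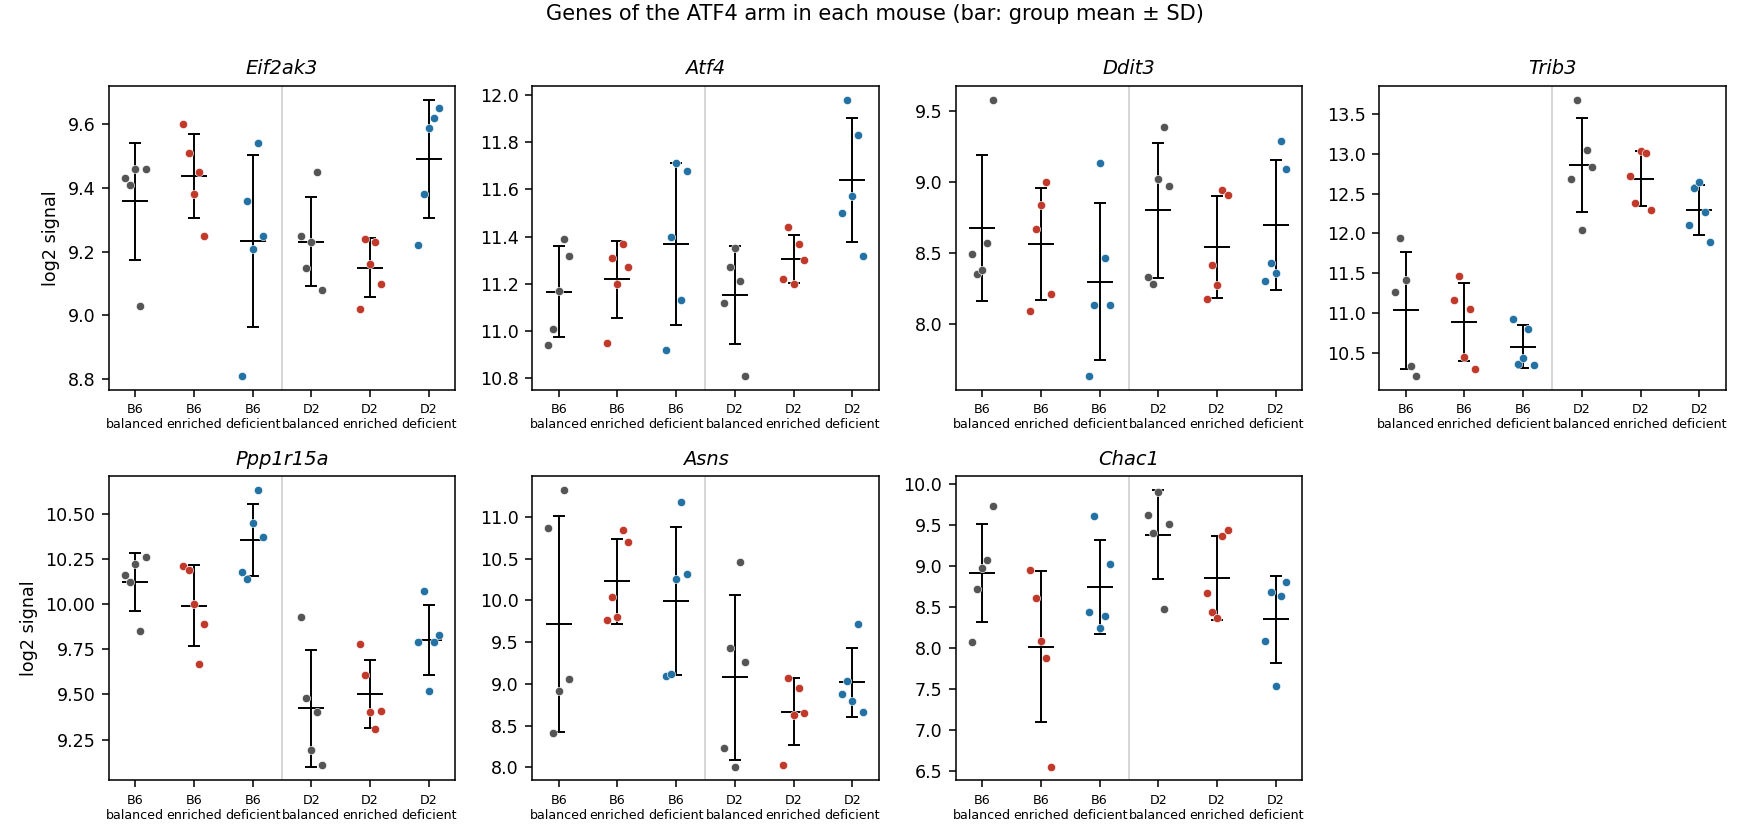
Log2 signal in each mouse of the 7 genes of the ATF4 arm in the 6 groups of strain and diet; points are mice and bars the group mean ± SD (n = 5), and each panel has its own axis, which does not start at 0. Trib3 lies higher in D2 (11.89 to 13.68) than in B6 mice (10.21 to 11.94), and Asns spreads from 8.41 to 11.32 among B6 balanced mice.

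Within groups, the ATF6-arm genes varied together from mouse to mouse more than the others did. Over the 30 mice, with each group mean subtracted, the 66 pairs of ATF6-arm genes had a median Pearson correlation of 0.57 (Spearman 0.53). The median was 0.30 (0.27) over 144 pairs of an ATF6-arm and an XBP1-arm gene, 0.16 (0.15) within the XBP1 arm, 0.11 (0.12) between the ATF6 and ATF4 arms and 0.12 (0.10) within the ATF4 arm. Without B6 balanced mouse 5 the first value was 0.50 (0.45). These are descriptions, since the pairs share mice, arrays and genes. The members nearest to Hspa5 in this measure were Syvn1 at 0.83 (0.80), Manf at 0.78 (0.77), Dnajb11 at 0.78 (0.75), Ddit3 at 0.78 (0.71) and Creld2 at 0.77 (0.76). In the ATF4 arm, Eif2ak3 was at 0.56, Asns, Atf4 and Chac1 at 0.29, 0.27 and 0.13, and Ppp1r15a and Trib3 at -0.04 and -0.14. The lowest members were Ern1 and Derl1 of the XBP1 arm, at -0.35 and -0.31.

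The 11 members with an ERSE or ERSE-II match were set beside the 20 members with a window and no match. On the deficient diet 5 of 11 were lower, with a median of -0.34, against 5 of 20 lower and 1 higher, with a median of -0.13. On the enriched diet the counts were 2 of 11 and 0 of 20, with medians of -0.20 and -0.10. Between the strains 5 of 11 were higher in D2 (median 0.15), against 7 of 20 higher and 3 lower (median 0.08). Of all genes, 4.22% were lower and 3.9% higher on the deficient diet, and 1.03% and 1.21% on the enriched diet. Between the strains 25.9% of all genes were higher in D2 and 24.2% lower. Hspa5, Hsp90b1, Creld2 and Syvn1, whose elements are printed above, did not pass with either diet, while Sdf2l1, Pdia4, Sec61b, Edem1 and Edem2 fell on the deficient diet without a match in the window.

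Other genes of the ER and of the stress pathways were read from lists. Among 48 further ER folding, translocation and ERAD genes, 6 were lower and 1 higher on the deficient diet (against 4.22% and 3.9% of all genes), with a median of -0.06. None passed on the enriched diet. The falls were led by Ppib, an ER prolyl isomerase, at -0.39 (SE 0.06, adjusted p = 0.000256), Spcs3 of the signal peptidase (-0.19), Ddost (-0.24) and Rpn2 (-0.16) of the oligosaccharyltransferase, and the higher gene was Vcp, the ATPase that extracts ERAD substrates, at 0.18, named after its value was seen. Between the strains 17 were higher in D2 and 13 lower, where 25.9% of all genes were higher and 24.2% lower. Of 18 further regulators of the response, Bcl2l11, a pro-death BCL2 relative, passed on the deficient diet at 0.42 (SE 0.12, adjusted p = 0.0355), none passed on the enriched diet, and 5 were higher and 2 lower in D2.

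Of 28 tested further ATF4 targets and amino acid response genes, 2 were higher on the deficient diet and none lower (against 3.9% and 4.22% of all genes). Fgf21, a liver hormone of fasting and stress, was at 1.13 (SE 0.29, adjusted p = 0.0163) and Slc3a2, a subunit of amino acid transporters, at 0.21 (SE 0.05, adjusted p = 0.0063). Slc3a2 was also higher on the enriched diet (0.25) and Aars, an alanyl-tRNA synthetase, lower (-0.23). Between strains 7 were higher in D2 and 7 lower, where 25.9% of all genes were higher and 24.2% lower. Of the kinases of eIF2 alpha, Eif2ak1 (HRI, which responds to low heme), Eif2ak2 (PKR), Eif2ak3 (PERK) and Eif2ak4 (GCN2) were at 0.00, -0.17, 0.07 and 0.05 on the deficient diet and at 0.03, -0.24, 0.00 and -0.05 on the enriched diet, and none passed. In D2 against B6 Eif2ak2 and Eif2ak4 were higher (0.70 and 0.38) and Eif2ak1 was lower (-0.29).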

How the data were processed

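Total liver RNA of 30 mice was hybridised to single-colour Agilent 4x44K arrays, 1 mouse per array. The deposited intensity of each spot is the background-subtracted processed signal written by Agilent Feature Extraction, version 9.1.3.1 per the file headers and 9.5.1 per the labels. The authors' value table held the same intensities, with a largest difference of 0. The authors' text names quantile normalization and a model of strain, diet and their interaction. Quantile normalization was also used here, and the authors' filter on dim probes was 1 of the alternative settings. Their analysis was not repeated in full.

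Control spots and spots marked as outliers were dropped. Signals were averaged per probe, quantile-normalized, raised to at least 13.9 and taken to log2. Probes well above background on at least 3 B6 and 3 D2 arrays, and with values for at least 3 mice of every group, were kept. These were 30006 of 41174, and the kept probe with the highest mean stood for a gene. A linear model with 6 group means was fitted with limma 3.58.1 in R 4.3.3 to all 21087 genes, with moderated tests and Benjamini-Hochberg adjustment at 0.05. The fit was also run on simulated data with independent arrays. That check cannot show how slide or scan day affects the p-values. Groups came from the labels. Promoter windows were read from RefSeq tables with Python 3.11.15. The array number limits the precision. Because no mouse was measured on a further array, p-values measure the spread between mice together with that between arrays, slides and scan days. With slide as a random block in the fit, arrays of the same slide had a correlation of 0.261. The main fit had no block and treated the arrays as independent. Alternatives were other normalizations, background corrections, filters, floors, slide and scan-day blocks, fewer groups, other probe rules, unmoderated tests and leaving out each mouse.

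The members and gene lists were chosen with earlier results of these data known. Every member may be named with its values. Of the other lists, up to 4 genes with the smallest adjusted p per comparison and the eIF2 alpha kinases were named.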

Additional observations from a re-analysis of the deposited data

Results flagged for a closer look

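Within the groups, 13 of the 209 sets of 4 or 5 mice examined (a member in a group) held a mouse whose gap to its nearest neighbour was large against the range of the set (Dixon's criterion), 6.2%, where chance gives about 1 in 20. Of these, 6 were the same animal, B6 balanced mouse 5, which was high each time. It read 11.93 for Sdf2l1 (the other 4 mice 10.59 to 10.75), 15.22 for Creld2 (13.60 to 13.95), 14.47 for Manf (13.37 to 13.56), 15.64 for Syvn1 (14.73 to 14.93), 9.58 for Ddit3 (8.35 to 8.57) and 14.43 for Pdia3 (13.99 to 14.05), all on the log2 scale. Without this mouse 12 members were lower and 1 higher on the deficient diet, 1 passed on the enriched diet and 15 were higher and 2 lower in D2.

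The remaining 7 each came from a different mouse. Pdia4 was low in B6 enriched mouse 5 at 12.28 (the others 12.60 to 12.66) and high in B6 deficient mouse 3 at 12.79 (12.40 to 12.46). Calr was high in D2 deficient mouse 5 at 14.46 (14.21 to 14.26), Atf6 in D2 enriched mouse 4 at 11.83 (11.47 to 11.55) and Ern1 in D2 balanced mouse 5 at 8.40 (7.87 to 7.95). Derl2 was low in B6 deficient mouse 1 at 13.80 (14.01 to 14.09) and Eif2ak3 in B6 balanced mouse 4 at 9.03 (9.41 to 9.46).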

How the results depend on the processing

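The differences that had passed were recomputed under each setting other than leaving out a mouse. This gave 495 values, in which the same differences recur once per setting. Of these values 427 stayed past the threshold, 67 did not and 1 reversed, Hyou1 between the strains at -0.657 with the mean of all kept probes. The count on the enriched diet (2) was 1 with slide as a fixed block, 1 with only the groups compared, 1 with the mean of all kept probes and 0 within scan day 2. The count on the deficient diet (13) was 0 within scan day 2 and 4 within scan day 3, where the ATF6 and XBP1 medians were -0.162 and -0.015 on day 2 and the ATF4 median -0.321 on day 3. Between the strains (17) it was 9 within each of these days. These fits use fewer mice. Without normalization between arrays 1 member passed for the difference between strains of the enrichment effect. Leaving out each mouse gave 1 to 3 members on the enriched diet, 12 to 15 on the deficient diet and 16 to 18 between strains, with the ATF4 median on the deficient diet between -0.052 and 0.122. The cause of these changes was not tested. In the 960 values of the same differences from leaving out each mouse in turn, 24 calls were lost and 0 reversed. No paired analysis was possible because the replicate numbers follow accession order and pair no mice.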
